A study of Mus musculus with 7 samples.

Results

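Solute carriers are the largest family of membrane transporters of mammalian cells, and their promoters were examined for Tip60, Hdac6 and p400 in mouse embryonic stem cells (ESCs). Promoters were taken by gene symbol: every TSS whose gene is named Slc, a number, a letter and a number, with 8 genes (10 TSSs) left out because they belong to other gene groups. This gave 418 promoters of 309 genes in 46 numbered families, out of 36733 TSSs in the Flag ChIP data and 22704 TSSs with a RefSeq identifier, which are the TSSs with p400 data. A promoter here is 1 TSS, so 226 genes had 1 promoter, 83 had 2 or more, and Slc43a2 had 5. Since 76 promoters lay within 1000 bp of another promoter of the same gene, they shared reads with it and are not separate observations. The TSS was an annotated transcript start of the mm9 gene annotation used here at 181 promoters (43.3%).

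ChIP-seq had been performed in 7 libraries, 1 per condition. Tagged proteins were precipitated with a Flag antibody: Tip60 from Tip60-H3F ESCs and Hdac6 from Hdac6-H3F ESCs. Each tagged line gave a GFP KD library and a knockdown library (Hdac6 KD for Tip60, Tip60 KD for Hdac6). The same Flag antibody was used in wild type E14 ESCs without a tag (untagged). For this library no knockdown is named and no time is given. Tag and GFP KD thus cannot be told apart where a GFP KD library is compared with it. An antibody against p400 itself was used in E14 ESCs after knockdown of GFP or of Hdac6. H3F is a histidine and Flag tag fused to the C-terminus of the endogenous protein in lines targeted into E14, and the knockdowns were by lentiviral shRNA for 72 hr, with GFP KD as the control. The Hdac6-H3F knockdown library is titled as Tip60 KD but its genotype entry reads Hdac6 KD, and the title was followed.

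The proteins studied are known from other work. Tip60 is a histone acetyltransferase and p400 a chromatin remodelling ATPase, and both are subunits of the Tip60-p400 complex, while Hdac6 is a deacetylase best known for its cytoplasmic substrates. Solute carriers move amino acids, sugars, ions, vitamins and metabolites across the plasma membrane or the membranes of mitochondria, the Golgi and lysosomes. Some, such as the mitochondrial carriers, serve every cell, and others are known for their use in gut, kidney, liver or neurons.

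Promoter sequences are printed for the genes at the ends of the p400 range. The first 2 promoters were among the highest in p400 signal upon GFP KD, the next 2 had the lowest, and the last 2 had the largest fall of p400 upon Hdac6 KD. Each sequence runs 5′ to 3′ in the direction of transcription, from 250 bases before the TSS to 50 bases from the TSS on, in mm9, with CpG dinucleotides in capitals, because promoters are grouped by CpG number below.

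Slc36a1, chr11:55017592-55017891, plus strand: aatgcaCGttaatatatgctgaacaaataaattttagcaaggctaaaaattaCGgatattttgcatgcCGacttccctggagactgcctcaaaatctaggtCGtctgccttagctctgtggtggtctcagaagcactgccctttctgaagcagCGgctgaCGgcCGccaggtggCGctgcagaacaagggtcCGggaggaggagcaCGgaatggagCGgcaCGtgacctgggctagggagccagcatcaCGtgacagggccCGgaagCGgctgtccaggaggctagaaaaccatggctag
Slc38a7, chr8:98377342-98377641, minus strand: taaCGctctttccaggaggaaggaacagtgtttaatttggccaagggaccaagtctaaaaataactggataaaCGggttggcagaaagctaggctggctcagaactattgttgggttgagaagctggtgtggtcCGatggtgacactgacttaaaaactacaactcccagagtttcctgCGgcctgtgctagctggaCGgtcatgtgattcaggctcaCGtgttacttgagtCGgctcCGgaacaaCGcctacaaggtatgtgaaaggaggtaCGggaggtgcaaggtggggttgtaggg
Slc28a2, chr2:122251963-122252262, plus strand: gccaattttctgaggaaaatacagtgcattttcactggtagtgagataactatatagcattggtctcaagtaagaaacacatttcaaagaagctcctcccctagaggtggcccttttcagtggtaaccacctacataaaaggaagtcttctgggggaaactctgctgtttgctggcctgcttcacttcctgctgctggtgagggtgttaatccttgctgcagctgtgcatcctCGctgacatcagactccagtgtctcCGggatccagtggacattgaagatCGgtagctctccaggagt
Slc16a7, chr10:124765542-124765841, minus strand: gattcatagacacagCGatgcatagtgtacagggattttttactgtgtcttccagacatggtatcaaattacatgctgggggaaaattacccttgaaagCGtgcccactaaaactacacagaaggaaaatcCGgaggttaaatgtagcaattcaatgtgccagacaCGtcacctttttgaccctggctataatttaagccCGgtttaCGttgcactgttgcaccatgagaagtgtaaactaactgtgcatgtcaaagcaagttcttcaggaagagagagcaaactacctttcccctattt
Slc6a8, chrX:70918239-70918538, plus strand: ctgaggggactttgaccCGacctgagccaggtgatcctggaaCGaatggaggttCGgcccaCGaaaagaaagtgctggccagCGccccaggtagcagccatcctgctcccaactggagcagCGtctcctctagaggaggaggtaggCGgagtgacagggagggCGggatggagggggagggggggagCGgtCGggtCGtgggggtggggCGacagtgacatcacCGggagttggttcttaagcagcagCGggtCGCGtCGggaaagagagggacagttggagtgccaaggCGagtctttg
Slc2a1, chr4:118781123-118781422, plus strand: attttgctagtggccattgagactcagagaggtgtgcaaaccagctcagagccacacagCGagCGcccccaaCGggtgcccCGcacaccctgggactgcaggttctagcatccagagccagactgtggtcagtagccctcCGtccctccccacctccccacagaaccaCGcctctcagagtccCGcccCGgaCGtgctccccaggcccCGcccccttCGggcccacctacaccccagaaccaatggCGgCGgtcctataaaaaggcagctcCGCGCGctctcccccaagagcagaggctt

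The 6 promoters held between 3 and 18 CpGs. Slc36a1 had 15 CpGs, Slc38a7 10, Slc28a2 3, Slc16a7 6, Slc6a8 18 and Slc2a1 16.

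Signal was measured as coverage scaled to library size (ppm) and averaged from −500 to 500 bp around the TSS. Because single reads could be recovered from the values, the number of reads in the same window is given for named genes. A solute carrier promoter held a median of 13 Tip60 reads in the control library and 10 in the knockdown library, and the medians were also 13 and 10 for Hdac6. They were 21 and 20 for p400, and 13 in the untagged library. Where 2 read numbers are given for a protein below, the first is from GFP KD and the second from the knockdown library. Read numbers are not scaled to library size. Libraries held from 9226740 to 31375500 normalizing reads, so read numbers of different libraries cannot be compared directly. Each comparison below gives the promoters past 1.5-fold (after adding 0.02 ppm) and the promoters that passed a read test, an exact binomial test of the 2 read numbers, adjusted over all TSSs by the Benjamini-Hochberg method, at 0.05. With 1 library per condition the read test compares 2 libraries and covers counting error only, so no difference between conditions was tested.

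Signal of Tip60, Hdac6 and p400 at solute carrier promoters was near that at other genes. Tip60 had a median promoter signal of 0.181 ppm upon GFP KD, Hdac6 one of 0.159 ppm and p400 one of 0.246 ppm, against 0.173, 0.146 and 0.239 ppm at the 22286 other TSSs with a RefSeq identifier. The untagged control had 0.160 ppm at solute carrier promoters and 0.152 ppm at the others. It is no background for p400, and its values cover reads of 299 bp where those of Hdac6 cover 148 bp. On the Hdac6 read length, mean untagged signal at solute carrier promoters was 0.0795 ppm, against 0.161 ppm for Hdac6. Averaged over the 418 promoters, p400 peaked at 80 bp downstream of the TSS with 0.291 ppm over a flank level of 0.172 ppm, where flank means beyond 1500 bp. Hdac6 also peaked at 80 bp, with 0.190 ppm over 0.0984 ppm. Tip60 had a weaker maximum on each side of the TSS, 0.198 ppm at −400 bp and 0.205 ppm at 180 bp, with 0.182 ppm between them.

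**Figure D1:**
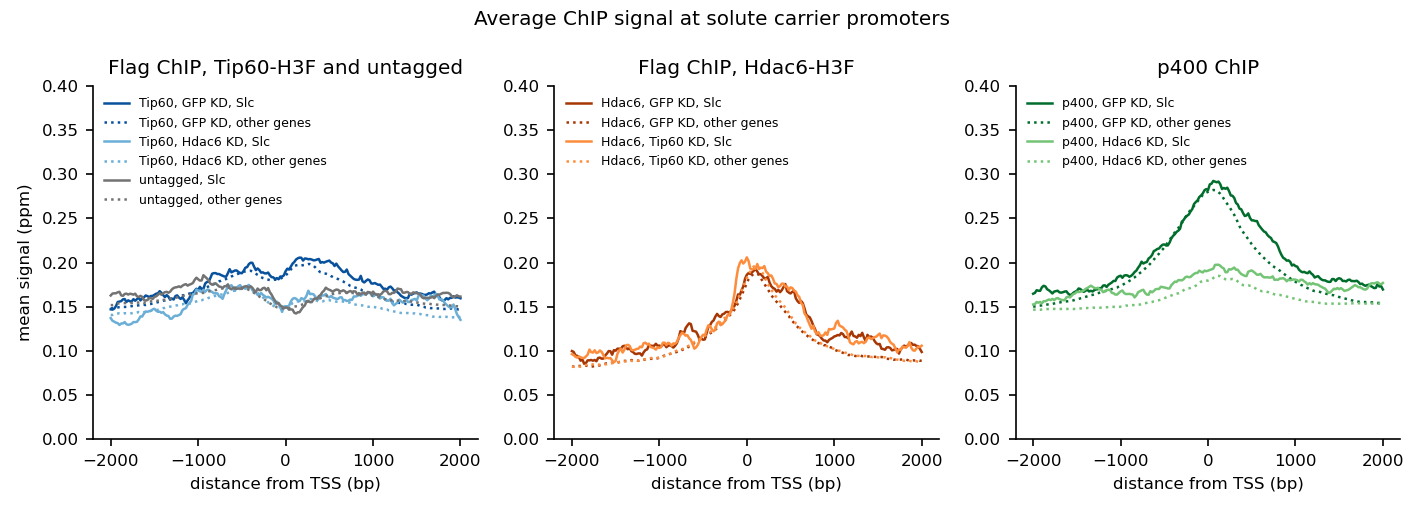
Average ChIP signal in ppm against distance from the TSS in bp, for 418 solute carrier promoters (solid lines) and 22286 other TSSs with a RefSeq identifier (dotted lines), 1 library per line. p400 rose to 0.291 ppm near the TSS upon GFP KD and to 0.197 ppm upon Hdac6 KD, Hdac6 had a peak of similar height in both of its libraries, and Tip60 stood only slightly above the untagged control.

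Tip60 upon GFP KD was compared first with the untagged control, which was taken as the background of the Flag signal although no knockdown is named for it. Slc6a9, the glycine transporter, Slc38a1 and Slc43a2, both carriers of neutral amino acids, Slc19a2, a thiamine transporter, and Slc35b1, a nucleotide transporter of the endoplasmic reticulum, had the highest Tip60 signal over background. Tip60 exceeded the untagged control past 1.5-fold at 123 solute carrier promoters (29.4%), where the same held for 26.1% of all TSSs. It was lower past 1.5-fold at 53 (12.7%), beside 13.4% of all TSSs. Of all TSSs with a RefSeq identifier, 27.9% were higher and 12.3% lower. The median log2 ratio was 0.19, as at the other RefSeq TSSs (0.19). The read test passed at 10 promoters of 8 genes, all with more Tip60 reads, where 1.34% of all TSSs passed in this direction and 0.117% in the other.

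At the Slc6a9 promoter (TSS at 117507863 on chromosome 4) there were 46 and 23 Tip60 reads, 26 and 20 Hdac6 reads, 6 untagged reads, and 49 and 29 p400 reads. Tip60 and Hdac6 were thus above the untagged library at this gene, and since p400 was precipitated with another antibody, the untagged library is no background for p400. The ratio of Tip60 to untagged reads, scaled to library size, was 8.32 (95% interval 3.54 to 23.8, counting error only, adjusted p = 1.45e-06 by the exact binomial test). Slc38a1 (TSS at 96473344 on chromosome 15) followed, with 43 and 35 Tip60 reads, 25 and 24 Hdac6 reads, 8 untagged reads, and 43 and 20 p400 reads in the same order. Its Tip60 ratio over the untagged library was 5.83 (2.71 to 14.4, adjusted p = 7.2e-05, exact binomial test). Slc43a2 (TSS at 75345200 on chromosome 11) had 33 and 18 Tip60, 14 and 15 Hdac6, 6 untagged, and 46 and 22 p400 reads. At these carriers the p400 reads were fewer upon Hdac6 KD.

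A few promoters passed with very few untagged reads and little p400. Slc5a10, a sodium-coupled sugar transporter, had 17 Tip60 reads against 0 untagged reads, at least 6.15-fold higher when 3 reads are taken as the limit of detection in the untagged library, and its p400 signal was at percentile 25.6 of all p400 TSSs. Slc9a7, a sodium-proton exchanger of the Golgi, had 14 Tip60 reads and 15 Hdac6 reads against 0 untagged reads, and Slc8a1, a sodium-calcium exchanger, had 17 Tip60 reads against 1 at its TSS at 81832130 on chromosome 17 but 6 against 17 at its TSS at 82137717. The lowest Tip60 to untagged ratios were at Slc2a2 (3 against 14 reads), Slc12a2 (5 against 18) and Slc13a1 (3 against 13), and none of these passed the read test (adjusted p = 0.249, 0.237 and 0.308, exact binomial test).

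Hdac6 was then compared with the untagged control. Hdac6 signal exceeded background at promoters of many transporter classes, metal ion transporters and nucleotide sugar transporters of the Golgi among them. Past 1.5-fold, Hdac6 was higher at 251 promoters (60.0%), beside 51.1% of all TSSs, and lower at 26 (6.22%), beside 9.32%. All solute carrier promoters here have a RefSeq identifier, and of all TSSs with one, 56.2% were higher and 8.17% lower. The read test passed at 128 promoters (30.6%) of 116 genes with more Hdac6 reads, beside 22.3% of all TSSs, and at 2 with fewer, beside 0.378%. Of all TSSs with a RefSeq identifier, 26.3% passed with more and 0.326% with fewer. The median log2 ratio was 0.84 at solute carriers and 0.72 at the other RefSeq TSSs. Of the 10 promoters that passed for Tip60, 8 passed for Hdac6 as well, and both comparisons used the same untagged library. Values of Hdac6 cover reads of 148 bp and the untagged values reads of 299 bp, so the untagged signal was put on the Hdac6 read length. Without this scaling, Hdac6 was higher past 1.5-fold at 95 promoters, fewer than the 123 of Tip60. The order of these fold counts thus depends on the scaling. The read test used reads recovered with each library's own read length. It passed with more reads at 128 promoters for Hdac6 and at 10 for Tip60. With the scaling, the flank of solute carrier promoters held 21.9% more Hdac6 than untagged signal.

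By class, 18 of 39 promoters of metal ion transporters passed with more Hdac6 reads, as did 17 of 39 of the ER and Golgi carriers. So did 12 of 42 of the mitochondrial carriers and 1 of 13 of the sodium-calcium exchangers. The shares beside these are 22.3% of all TSSs and 26.3% of those with a RefSeq identifier. Differences between the classes were not tested. Slc44a5, a choline transporter-like gene, had 27 and 19 Hdac6 reads against 5 untagged reads (10.8-fold, 4.10 to 35.9, adjusted p = 1.05e-06, exact binomial test), while its Tip60 reads were 13 and 6. Slc6a6, the taurine transporter, had 28 and 18 Hdac6 reads against 7. Slc5a8, a sodium-coupled monocarboxylate transporter, had 24 and 6 against 5, and Slc30a1, a zinc exporter, had 20 and 12 against 5. At these 4 promoters the Hdac6 libraries were above the untagged one upon GFP KD, whereas their Tip60 reads (13, 15, 5 and 13) did not pass against the same control. The difference between Hdac6 and Tip60 was not tested. At Slc9a7 the 15 Hdac6 reads were at least 9.99-fold above the untagged library.

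The 2 promoters that passed in the other direction were Slc26a3, a chloride and bicarbonate exchanger known from the gut, and Slc8a1. Slc26a3 (TSS at 32132300 on chromosome 12) had 2 and 4 Hdac6 reads, 8 and 8 Tip60 reads, 9 and 21 p400 reads, and 25 untagged reads, the most in the library without a tag. The Slc8a1 promoter at 82137717 had 1 and 4 Hdac6 reads against 17.

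**Figure D2:**
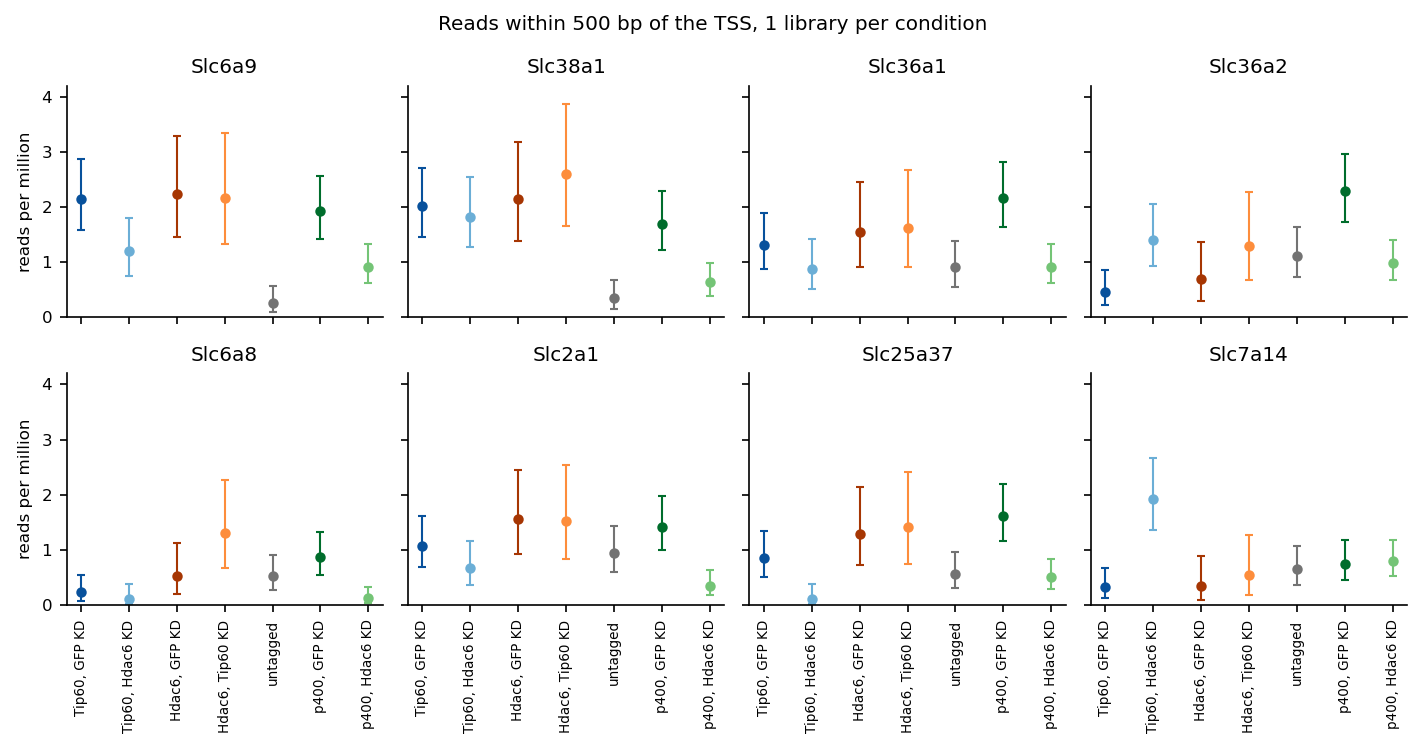
Reads within 500 bp of the TSS, scaled to library size, in each of the 7 libraries, at 8 promoters, with 95% Poisson intervals that cover counting error only. Slc6a9 and Slc38a1 were high in the Tip60 and Hdac6 libraries and low in the untagged one, the p400 values upon Hdac6 KD were below those upon GFP KD at every gene shown but Slc7a14, and Slc7a14 and Slc36a2 had more Tip60 reads upon Hdac6 KD.

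The level of p400 upon GFP KD differed between classes of transporter, which were not tested against each other. Median p400 signal was highest at cation-chloride cotransporters (0.315 ppm, 12 promoters), mitochondrial carriers (0.306 ppm, 42), ER and Golgi carriers (0.304 ppm, 39), choline-like carriers (0.294 ppm, 7) and metal ion transporters (0.287 ppm, 39). It was lowest at urea transporters of the Slc14 family (0.124 ppm, 4 promoters), sodium-calcium exchangers (0.192 ppm, 13) and transporters of bicarbonate and other anions (0.199 ppm, 22). In the top 10% of p400 signal over all p400 TSSs there were 38 solute carrier promoters of 31 genes (9.09%), and in the lowest 10% there were 18 (4.31%). None of the 29 promoters of organic ion and bile acid transporters, carriers best known from liver and kidney, was in the top 10%, and all 4 Slc14 promoters were in the lowest 25%.

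Amino acid carriers were split between the ends. Of their 59 promoters, 11 were in the top 10% and 13 in the lowest 25%, and their median was 0.224 ppm. The 11 held 4 promoters of Slc43a2 (TSSs from 75345200 to 75345640) and 2 of Slc38a7 (TSSs 17 bp apart). Such neighbouring promoters share reads and are not separate observations. The highest p400 signals of all solute carriers were at Slc36a2 (0.669 ppm), Slc36a1 (0.634 ppm), Slc38a7 (0.588 ppm), Slc16a6 (0.579 ppm) and Slc6a9 (0.566 ppm). Slc36a1 and Slc36a2 are proton-coupled amino acid transporters with TSSs 19263 bp apart on chromosome 11, Slc38a7 is a lysosomal amino acid transporter, and Slc16a6 belongs to the monocarboxylate family. Slc36a1 had 28 and 17 Tip60, 18 and 15 Hdac6, 21 untagged, and 55 and 29 p400 reads. At Slc36a2 there were 10 and 27 Tip60 reads, 8 and 12 Hdac6 reads, 26 untagged reads, and 58 and 31 p400 reads. The Slc36a2 promoter thus had the most p400 of all solute carriers and more untagged than Tip60 or Hdac6 reads upon GFP KD. Slc38a7 had 26 and 23 Tip60, 26 and 11 Hdac6, 21 untagged, and 51 and 24 p400 reads. Slc16a6 had 36 and 14 Tip60, 21 and 15 Hdac6, 15 untagged, and 50 and 21 p400 reads.

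The lowest p400 signals were at the Slc28a2 promoter at 122252213 on chromosome 2, which had no p400 read in either library and 1 read in all, and at Slc16a7 and Slc17a4, with 3 p400 reads each upon GFP KD. Slc28a2 is a nucleoside transporter, Slc16a7 a monocarboxylate transporter and Slc17a4 an anion transporter. The 0 p400 reads at Slc28a2 allow up to 3 reads per library.

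**Figure D3:**
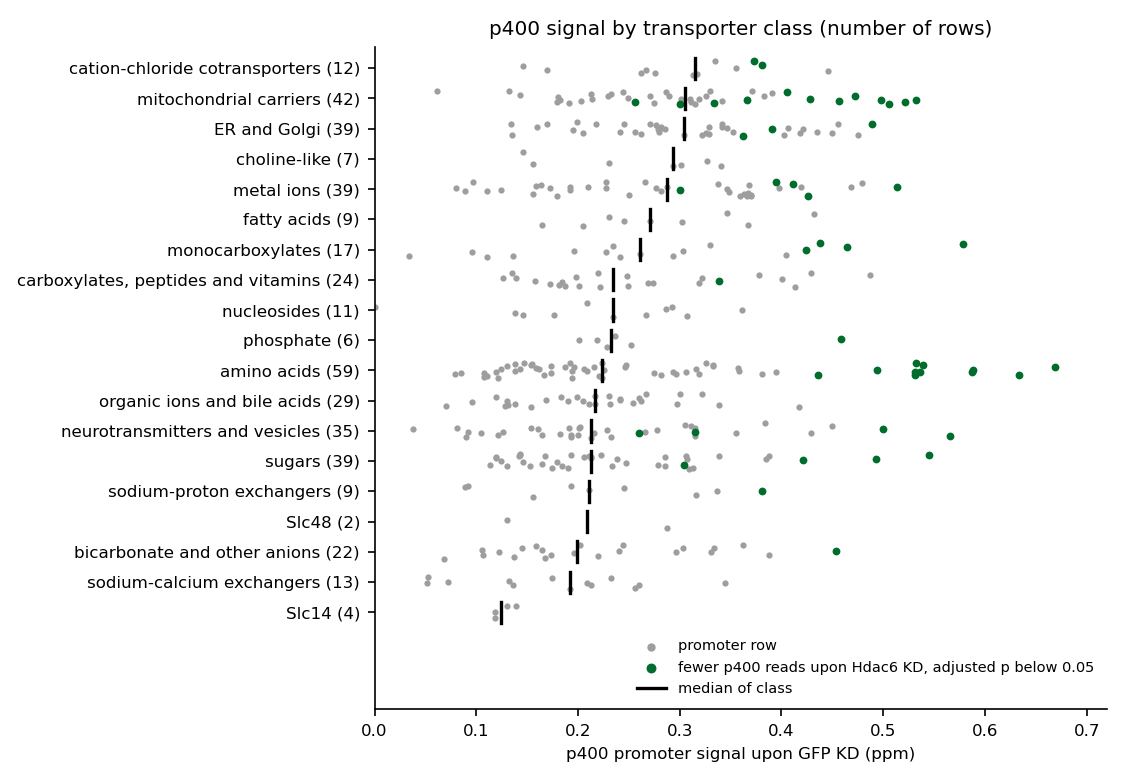
p400 promoter signal upon GFP KD in ppm, 1 point per promoter, by transporter class in the order of the class medians (black bars). Green marks promoters that passed the read test with fewer p400 reads upon Hdac6 KD. Promoters in green lay at 0.256 ppm or more and were most numerous among mitochondrial carriers (12, of 12 genes) and amino acid carriers (11, of 6 genes). The read test uses the same GFP KD reads, so a promoter with few of them can hardly pass, and the lower limit of the green points follows from this.

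p400 signal followed the CpG content of the promoter. Promoters with 0 to 4 CpGs in the 300 bases at the TSS had a median of 0.154 ppm (92 promoters), those with 5 to 14 had 0.209 ppm (131), those with 15 to 24 had 0.313 ppm (106) and those with 25 or more had 0.328 ppm (89). Hdac6 rose in the same way, from 0.0770 to 0.217 ppm between the outer groups, and the untagged control did not, with 0.153 and 0.154 ppm. Across the 418 promoters, Spearman's rho of CpG number was 0.58 with p400, 0.59 with Hdac6, 0.26 with Tip60 and 0.005 with the untagged control, as a description, since nearby TSSs share reads and the values share base composition. The other RefSeq TSSs had rho of 0.65, 0.65, 0.37 and 0.15 in the same order.

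Short motifs were counted in the same 300 bases, on both strands. TATAAA, the core promoter box, was in 11.5% of solute carrier promoters (12.8% of all TSSs), CACGTG, an E-box, in 12.4% (6.99%), CCGGAAG, an Ets-type motif, in 8.13% (9.29%), and a palindromic NRF1-type motif in 0.239% (0.893%). None of these motifs contains another. TATAAA was in 0 of the 38 promoters in the top 10% of p400 and in 16 of the 76 in the lowest 25% (21.1%), and over all p400 TSSs the shares were 5.42% and 25.6%. Among the printed promoters, CACGTG was in Slc36a1 and Slc38a7, CCGGAAG in Slc36a1 and TATAAA in Slc2a1. A match is a run of letters and not a bound site.

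Some genes with several TSSs differed in p400 between them. Of the 83 such genes, 7 had a promoter above percentile 90 of p400 and another below percentile 30: Slc25a40, Slc35f2, Slc36a1, Slc38a1, Slc39a3, Slc43a2 and Slc7a7. At Slc43a2 the 4 promoters between 75345200 and 75345640 had 46 or 47 p400 reads each and 19 to 35 CpGs, and the promoter at 75380340 had 14 reads and 2 CpGs. The Slc36a1 promoter at 55027297 had 10 p400 reads and 4 CpGs, against 55 reads and 15 CpGs at 55017842. Slc38a1 had 43 p400 reads at 96473344 with 19 CpGs and 14 reads at 96454600 with 7. Upon Hdac6 KD the low promoters had 20, 23 and 19 p400 reads, none of which passed as lower.

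Promoters shared with a neighbouring gene were few. At 16 promoters of 14 genes (3.83%), among them Slc16a6, Slc25a40, Slc5a6 and Slc39a7, the TSS of another gene on the other strand lay within 500 bp, as it did at 5.87% of the other RefSeq TSSs. Median p400 was 0.353 ppm there and 0.241 ppm at the other 402 solute carrier promoters, and median Tip60 was 0.283 and 0.179 ppm. Signal at these 16 cannot be assigned to one of the paired genes.

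Upon Hdac6 KD, 39 solute carrier genes passed the read test with fewer p400 reads. They included Slc2a1, the main glucose transporter of many cells, Slc16a1, a lactate transporter, Slc25a3 and Slc25a5, the mitochondrial phosphate carrier and an ADP/ATP translocase, and Slc6a8, the creatine transporter. Past 1.5-fold, p400 was lower at 163 promoters (39%), beside 40.5% of all p400 TSSs, and higher at 27 (6.46%), beside 6.81%. The median log2 change was −0.41, and −0.43 at the other RefSeq TSSs. The read test passed at 49 promoters of 39 genes with fewer reads, beside 13.1% of all p400 TSSs, and at 1 with more, beside 0.3%. Shares and medians of the solute carriers were thus close to those of all genes. The average promoter signal changed by −28.8% and the flank by −3.71%, against −31.3% and −3.05% at the other RefSeq TSSs.

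Mitochondrial carriers exchange metabolites across the inner membrane. They passed the read test with fewer p400 reads at 12 of 42 promoters (28.6%), beside 13.1% of all p400 TSSs. Their median log2 change was −0.61, and −0.41 after the GC correction described below. Other RefSeq TSSs passed at 22.3% with 15 to 24 CpGs and at 25.5% with 25 or more. The class was not tested against promoters of like CpG number. Besides Slc25a3 and Slc25a5, the 12 were Slc25a10, Slc25a13, Slc25a22, Slc25a24, Slc25a26, Slc25a29, Slc25a30, Slc25a37, Slc25a39 and Slc25a40. At Slc25a26, the S-adenosylmethionine carrier, p400 reads went from 39 to 14 and Tip60 reads from 28 to 21, with 12 untagged reads. At Slc25a37, a mitochondrial iron importer, p400 reads went from 41 to 16 and Tip60 reads from 18 to 2, with 13 untagged reads. The fall of p400 passed at both genes (adjusted p = 0.00108 and 0.00168, exact binomial test), and the fall of Tip60 passed at neither (adjusted p = 0.932 and 0.0678). Slc25a1, Slc25a4 and Slc25a20 did not pass, with 32 to 20, 27 to 23 and 23 to 19 p400 reads.

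Amino acid carriers passed the read test with fewer p400 reads at 11 of 59 promoters (18.6%), beside 13.1% of all p400 TSSs. The 11 were of the 6 genes Slc36a1, Slc36a2, Slc38a1, Slc38a7, Slc43a2 and Slc7a7, and some of them share reads. At Slc43a2 (TSS at 75345614) p400 reads went from 46 to 14, a ratio of 0.245 (0.125 to 0.454, adjusted p = 8.23e-05, exact binomial test), and Tip60 reads from 24 to 14. At Slc36a1 and Slc36a2 the ratios were 0.425 and 0.431 (adjusted p = 0.00423 and 0.00328, exact binomial test). In both, p400 upon Hdac6 KD remained at 29 and 31 reads.

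Metal ion transporters passed at Slc39a14, Slc39a8, Slc39a11 and Slc41a1, with 5 of 39 promoters (12.8%), beside 13.1% of all p400 TSSs. Slc39a14, a zinc and iron importer, had 34 and 10 p400 reads (ratio 0.237, 0.105 to 0.491, adjusted p = 0.000703, exact binomial test). Monocarboxylate transporters passed at Slc16a1 (38 to 18 reads), Slc16a6 (50 to 21 reads) and Slc16a14 (40 to 21 reads). Sugar and vitamin transporters of the Slc2 and Slc5 families passed at Slc2a1, Slc2a6 and Slc5a6. Neurotransmitter and vesicular transporters passed at 4 of 35 promoters (11.4%). The 4 were of Slc6a2, the noradrenaline transporter, Slc18a2, the vesicular monoamine transporter, Slc6a8 and Slc6a9. Slc18a2 had 43 and 19 p400 reads, and Slc6a2 27 and 13 at the promoter that passed. No promoter passed among the organic ion and bile acid transporters (29), sodium-calcium exchangers (13), nucleosides (11), fatty acids (9) or choline-like carriers (7), where 3, 2, 2, 2 and 5 promoters were lower past 1.5-fold.

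The largest falls of p400 were at Slc6a8 and Slc2a1, whose promoters are printed above with 18 and 16 CpGs. Slc6a8 (TSS at 70918489 on chromosome X) had 22 and 4 p400 reads, 5 and 2 Tip60 reads, 6 and 12 Hdac6 reads, and 12 untagged reads. Its p400 ratio was 0.147 (0.0367 to 0.432, adjusted p = 0.00151, exact binomial test), and Tip60 was not above the untagged library there. Slc2a1 (TSS at 118781373 on chromosome 4) had 36 and 11 p400 reads, 23 and 13 Tip60 reads, 18 and 14 Hdac6 reads, and 22 untagged reads. Its p400 ratio was 0.246 (0.113 to 0.495, adjusted p = 0.000654, exact binomial test).

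One promoter passed with more p400 reads upon Hdac6 KD. Slc26a1, a sulfate and anion exchanger, had 6 and 26 p400 reads, 13 and 11 Tip60 reads, 7 and 7 Hdac6 reads, and 22 untagged reads (p400 ratio 3.5, 1.41 to 10.4, adjusted p = 0.0337, exact binomial test). Slc25a41 (5 to 19 p400 reads) and Slc31a2 (8 to 24 p400 reads at 61952581 on chromosome 4) were next and did not pass. Slc26a1 was at percentile 5.22 of p400 upon GFP KD.

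**Figure D4:**
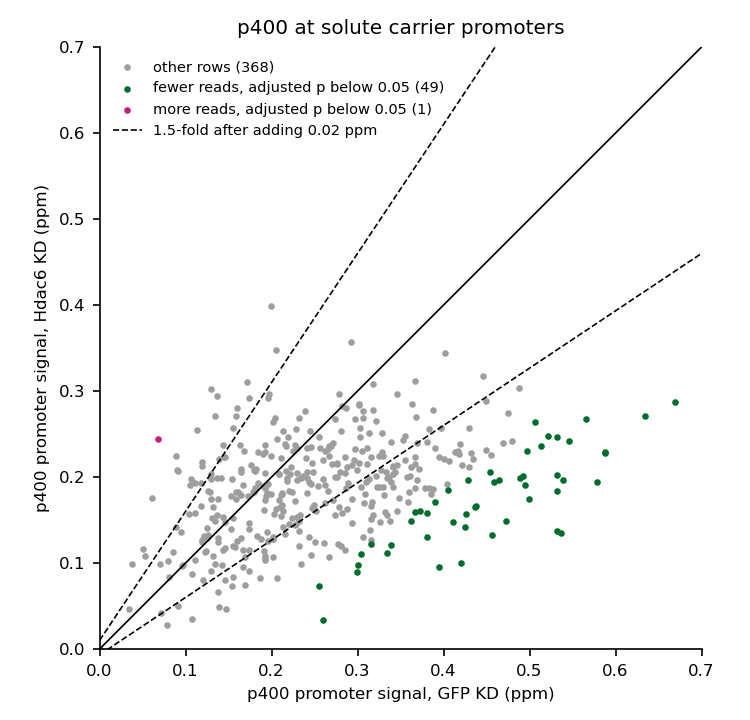
p400 promoter signal in ppm upon Hdac6 KD against GFP KD for the 418 solute carrier promoters, with equality (solid line) and 1.5-fold after adding 0.02 ppm (dashed lines), and promoters past the exact read test in color. The 49 promoters that passed with fewer reads lie below the lower dashed line, and the 1 that passed with more is at the left edge.

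The fall of p400 was larger at promoters with many CpGs. Median log2 changes were 0.06, −0.17, −0.72 and −0.64 from the lowest to the highest of the 4 CpG groups, and 0.03, −0.27, −0.69 and −0.77 at the other RefSeq TSSs. The read test passed with fewer p400 reads at 1 of 92, 10 of 131, 24 of 106 and 14 of 89 promoters, or 1.09%, 7.63%, 22.6% and 15.7%. The other RefSeq TSSs had 0.624%, 6.81%, 22.3% and 25.5%. The p400 level upon GFP KD enters both the ranking of promoters and the change, and its part in the result was not tested.

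The libraries differed in GC content as well. In windows beyond 1500 bp of isolated TSSs, the knockdown signal divided by the control signal depended on GC content, for Tip60 as well as for p400. Dividing each promoter by the ratio at its own GC content gave a median log2 change of p400 of −0.32 at solute carriers and −0.34 at the other RefSeq TSSs. Of the 49 promoters that passed with fewer p400 reads, 48 stayed lower past 1.5-fold. In the 4 CpG groups the corrected p400 medians were 0.04, −0.26, −0.71 and −0.36, and 0.06, −0.34, −0.69 and −0.50 at the other RefSeq TSSs. Median GC content of the solute carriers in the highest group was 64.8%. The p400 ratio there rests on few windows, 110 at 62.5 to 65% GC and 72 at 65 to 67.5%.

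**Figure D5:**
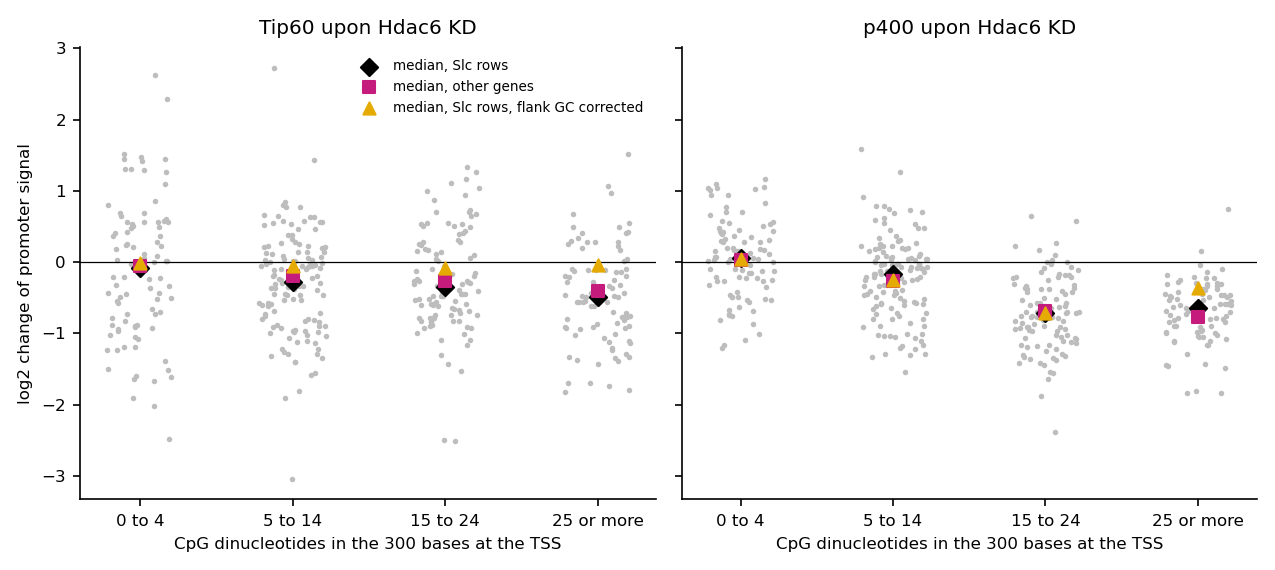
log2 change of Tip60 (left) and p400 (right) promoter signal upon Hdac6 KD, 1 gray point per solute carrier promoter, by the number of CpGs in the 300 bases at the TSS, with medians of solute carriers, of other RefSeq TSSs and of solute carriers after the GC correction from flanking windows. The p400 medians fell from 0.06 to −0.64, and to −0.36 after correction, while the corrected Tip60 medians lay between −0.08 and −0.01.

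Tip60 upon Hdac6 KD gave a smaller fall that rested on few reads. Slc39a13, a zinc transporter of the secretory pathway, was the 1 promoter that passed with fewer Tip60 reads, and Slc7a14 and Slc28a2 passed with more. Past 1.5-fold, Tip60 was lower at 149 promoters (35.6%), beside 31.1% of all TSSs, and higher at 45 (10.8%), beside 13.4%. The read test passed at 0.422% of all TSSs with fewer reads and at 0.0517% with more. The median log2 change was −0.32, and −0.23 at the other RefSeq TSSs, and with the GC correction these became −0.05 and 0.00. The average promoter signal changed by −17.6% and the flank by −8.65%.

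Slc39a13 (TSS at 90910378 on chromosome 2) had 38 and 9 Tip60 reads, 22 and 21 Hdac6 reads, 17 untagged reads, and 30 and 17 p400 reads (Tip60 ratio 0.264, 0.112 to 0.555, adjusted p = 0.0306, exact binomial test). Slc7a14 (TSS at 31157316 on chromosome 3), from the family of cationic amino acid transporters, had 7 and 37 Tip60 reads, 4 and 5 Hdac6 reads, 15 untagged reads, and 19 and 25 p400 reads. Its Tip60 ratio was 5.89 (2.59 to 15.6, adjusted p = 0.00195, exact binomial test), and its other promoter had 9 Tip60 reads in both libraries. The Slc28a2 promoter at 122265590 had 2 and 19 Tip60 reads, 0 and 3 Hdac6 reads, 7 untagged reads, and 12 and 13 p400 reads. The 2 promoters that passed with a rise of Tip60 had 3 and 0 CpGs, and p400 changed little in reads there. No relation of the rise to CpG number can be read from 2 promoters. Rises past 1.5-fold that did not pass were also found at promoters with many CpGs, such as Slc38a10 (log2 change 1.33, 24 CpGs).

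The largest falls of Tip60 signal after Slc25a37 (18 to 2 reads) were at Slc39a5 (24 to 4), Slc45a4 (14 to 2), Slc27a2 (21 to 4) and Slc6a5 (26 to 6), and none of these 5 passed the read test. Slc27a2 is a fatty acid transporter and Slc6a5 the neuronal glycine transporter. Of the 418 promoters, 62 were lower past 1.5-fold for both Tip60 and p400, 17 had higher Tip60 and lower p400, 9 had lower Tip60 and higher p400, and 3 were higher for both. Taken singly, Tip60 was lower at 149 and higher at 45 of the 418, and p400 lower at 163 and higher at 27. Some overlap follows from these single counts alone, and whether the 2 proteins changed together was not tested. Of the 49 promoters that passed the read test with fewer p400 reads, 23 were lower and 2 higher past 1.5-fold for Tip60. No solute carrier promoter passed the read test in more than 1 knockdown comparison. Since only 1 passed with fewer and 2 with more Tip60 reads, and 0 passed for Hdac6, there was little room for such an overlap.

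Hdac6 upon Tip60 KD changed little at solute carriers. Past 1.5-fold, Hdac6 was lower at 55 promoters (13.2%), beside 16% of all TSSs, and higher at 76 (18.2%), beside 16.6%. The exact binomial read test passed at 0 promoters in either direction, beside 0% and 0.00272% of all TSSs, and 18 promoters had an unadjusted p under 0.05. The median log2 change was 0.05, and 0.02 at the other RefSeq TSSs. Average promoter signal rose by 3.49%, from 0.161 to 0.167 ppm. The largest falls were at Slc39a5 (13 to 2 Hdac6 reads), Slc5a8 (24 to 6), Slc2a9 (13 to 3), Slc45a4 (13 to 4) and Slc25a20 (13 to 4). The largest rises were at Slc25a41 (8 to 18), Slc44a1 (7 to 16) and Slc28a1 (9 to 19). These libraries were the shallowest of the 7, and at this depth none of these differences could be told from counting error after adjustment.

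A list of 30 genes, drawn up by function, held 37 promoters. It included transporters used by most cells, such as Slc12a2, Slc29a1, Slc30a1, Slc33a1, Slc39a1 and Slc11a2. Others on it are known from neurons, liver, gut or kidney, such as Slc6a4, Slc17a6, Slc18a3, Slc32a1, Slc10a1, Slc22a6, Slc5a1, Slc34a1 and Slc26a3. Slc2a3 and Slc40a1 were on the list as well. The read test passed with fewer p400 reads upon Hdac6 KD at 7 of the 37 promoters, beside 13.1% of all p400 TSSs, and with more at 0. These 7 were in 7 genes, among them Slc2a1, Slc16a1, Slc19a1, Slc20a1, Slc25a3 and Slc25a5. Past 1.5-fold, p400 was lower at 20 of the 37 and higher at 1, beside 40.5% and 6.81% of all p400 TSSs. Slc19a1, the reduced folate carrier, had 29 and 13 p400 reads, and Slc20a1, a phosphate transporter, 40 and 21. By the read test, Hdac6 exceeded the untagged library at 14 of the 37 promoters (13 genes). That compares with 22.3% of all TSSs and 26.3% of those with a RefSeq identifier. The 14 included Slc6a4, the serotonin transporter (15 against 5 reads), Slc18a3, the vesicular acetylcholine transporter (17 against 7), and Slc10a1, a bile acid transporter (19 against 11). Tip60 passed the read test over the untagged library at Slc35b1 (34 against 11 reads), and upon Hdac6 KD at none.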

How the data were processed

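ChIP-seq coverage signal was deposited by the authors as 1 file per library, with 201 positions of 20 bp from −2000 to 2000 bp around each TSS. As their methods state, reads were collapsed by sequence with occurrences kept, mapped to mm9 with bowtie (at most 1 mismatch, repeated matches placed at random), extended downstream, cleared of simple repeats, normalized and binned. The labels' processing notes also name CASAVA 1.8.2, and the bowtie version is not given in the sources used here. Random placement and extension spread reads over neighbouring TSSs and repeated sequence.

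All values were whole multiples of a step per library (tolerance 0.05 reads), which gave 21339400, 19161100, 11586200, 9226740, 23146800, 25308200 and 31375500 normalizing reads. These stand for Tip60 (control, then knockdown), Hdac6 (control, then knockdown), the untagged cells and p400 (control, then knockdown). Reads per promoter are summed signal divided by step and read span, rounded. Rows of the p400 files were joined by identifier and file order, which matched in 610 of 610 tested pairs. Sequences were read from the mm9 genome.

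Fold changes, the exact binomial read test (scipy 1.17.1, two-sided, Benjamini-Hochberg over 36733 or 22704 TSSs) and the GC correction in bins of 2.5% were run over all TSSs with Python 3.11.15, numpy 2.4.6 and pandas 2.3.3, drawn with matplotlib 3.10.9 and tested on simulated data. Intervals cover counting error only. Knockdown efficiency and cell identity cannot be checked from promoter signal. Named genes are, per comparison, the 5 with the largest change in the counted direction and the 3 in the other among promoters with at least 15 reads, the 5 highest and 3 lowest in p400, the 5 highest in Tip60 minus untagged signal, and a list of 30 genes. Other called genes, Slc39a13 among them, and the 7 genes with split promoters were named after their values were seen. Members, classes and lists were chosen with earlier results of these data known. Alternatives were a window of 250 bp, a pseudocount of 0.1 ppm, 1 promoter per gene, at least 10 reads, equal flank signal, the read test, 2-fold, unscaled read span and the GC correction. Values of a few genes and 1 promoter sequence are not reported here.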

Additional observations from a re-analysis of the deposited data

Results flagged for a closer look

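At 4 named promoters the Tip60 and p400 signals moved in opposite directions past 1.5-fold upon Hdac6 KD, and the difference between them was not tested. The log2 change of Tip60 was −0.94 at Slc8a1 (TSS at 81832130), −1.91 at Slc45a4 and −0.88 at Slc31a2, where that of p400 was 0.82, 1.04 and 1.17. At Slc36a2 the log2 change was 1.48 for Tip60 and −1.17 for p400. Of these 8 changes, the p400 change at Slc36a2 passed the read test.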

How the results depend on the processing

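Of the counts of promoters past the fold, 25 of 39 recomputed under other settings stayed within 1.5 times. For Tip60 over untagged (123 promoters higher), a pseudocount of 0.1 ppm gave 74, the read test 10 and 2-fold 64. For Hdac6 over untagged (251), the read test gave 128 and the unscaled read span 95. For Tip60 upon Hdac6 KD (149 lower), a pseudocount of 0.1 ppm gave 92, the read test 1, 2-fold 66 and the GC correction 96. For p400 upon Hdac6 KD (163 lower), the read test gave 49 and 2-fold 69, and the GC correction 147. For Hdac6 upon Tip60 KD (55 lower), a pseudocount of 0.1 ppm gave 24, the read test 0 and 2-fold 17. A larger pseudocount, a larger fold and the read test shrink counts by construction. No paired analysis was possible because each condition has 1 library. For the same reason no library could be left out. Depth limits single promoters, with a median of 10 to 13 reads per promoter in the Flag libraries.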
